A study of Drosophila melanogaster with 2 samples.

Results

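Peaks of Brinker, a sequence-specific repressor of genes that the BMP ligand Dpp activates, were examined at 10 core genes of the Notch pathway that lie outside the E(spl) complex. They encode the receptor (N), its ligands (Dl and Ser) and factors that process, limit or read out the signal (kuz, fng, neur, numb, Su(H), H and mam). The genes are a list of names with no binding value in its rule, drawn up with earlier results of these data known, and are 10 of the 13945 protein-coding genes annotated on the 6 chromosome arms. Each gene was given the summits that fell inside it or up to 5 kb beyond either of its ends. The material was chromatin from whole larvae of the third instar, at the wandering stage, both sexes pooled, of the line brk-GFP, which stably expresses Brinker with GFP at its C terminus; the precipitating antibody was directed against GFP. There was 1 group with 2 biological replicates, which carry the numbers 3 and 4, and no other condition and no mock precipitation enters the comparison. Whole larvae mix all tissues, so a peak cannot be assigned to the cells in which Notch signals. Values are the deposited peak signals, whose scale is not stated, and depth is unknown because peak lists hold no read counts. With 1 group of 2 replicates no test between conditions was possible, and the counts below are descriptions.

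Notch is a transmembrane receptor through which neighbouring cells choose different fates. Dl or Ser on one cell binds N on the next, the metalloprotease Kuz and then gamma-secretase cut the receptor, and the released intracellular domain enters the nucleus, where it joins the DNA-binding protein Su(H) and the coactivator Mam. In larval imaginal discs the pathway sets the wing margin, the width of the veins and the sensory bristles, and it acts in the same tissues in which Dpp and Brinker pattern growth.

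Peaks lay at 8 of the 10 genes, in 28 summits of the irreproducible discovery rate (IDR) list. The IDR procedure compares how peaks rank in the replicates. On the chromosome arms the list holds all 3380 entries of the pooled list with a signal of at least 82.6. Membership there equals a cut on pooled signal, and does not show that the replicates agreed at a given summit. Of the 3380, 134 had no overlapping entry in replicate 4, among them a summit at neur. mam had 7 summits, a number that 0.502% of protein-coding genes reached, Dl and Ser had 4 each, kuz, fng and numb had 3 each, and N and neur had 2 each. Su(H) and H, the genes of the DNA-binding protein and of the corepressor adaptor that binds it, had 0. Of all protein-coding genes, 26.9% had at least 1 such summit and 13.1% had at least 2, against 8 of the 10 members for each. Among the 3753 protein-coding genes with a summit, 1828 had at least 2. Long genes offer more room for summits, and the 8 members with a summit are long. Among the 4220 protein-coding genes whose length with both 5 kb flanks falls in the members' range, 13.8 to 99.3 kb, 40.2% had a summit. The 8 genes with peaks measured at least 29 kb with their flanks, and 54.1% of the 1077 protein-coding genes of that length had a summit and 34.4% had at least 2. No share with at least 7 was taken over long genes, so the 0.502% beside mam is not matched for length. Su(H) and H measured 13.8 and 17.0 kb, and 27.9% of genes between 13 and 18 kb had a summit. The limits of 29 kb, 13 kb and 18 kb were set after the members' values were seen. Per length, the 10 genes together held 0.664 IDR summits per 10 kb of gene and flank, against 0.351 over all genes in their length range.

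**Figure D1:**
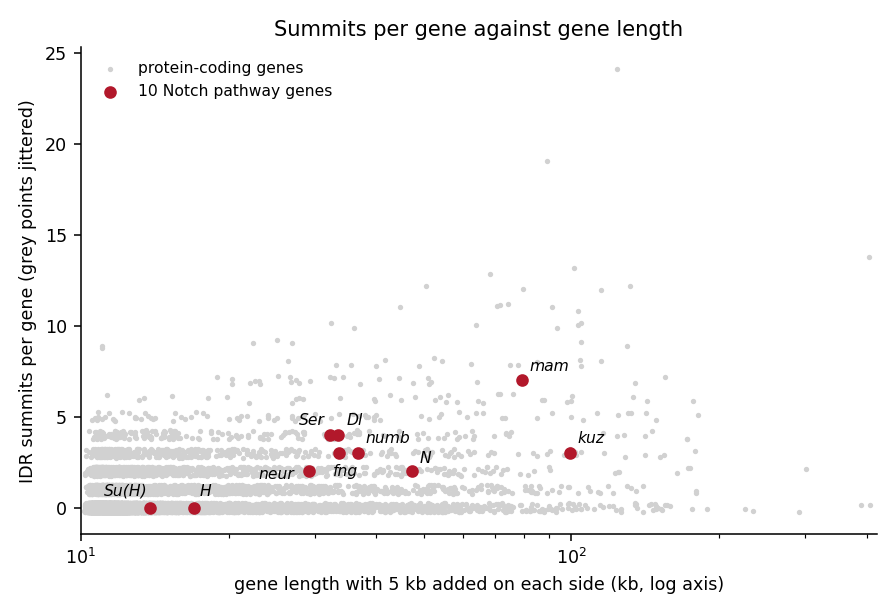
Number of IDR summits in each protein-coding gene (y axis) against the length of the gene with 5 kb on each side in kb (x axis, log scale). Red points are the 10 Notch pathway genes and grey points, moved by a small random amount on the y axis, are all protein-coding genes; mam stands at 7 summits and Su(H) and H, the shortest of the 10, at 0.

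The signal of the strongest summit ordered the genes as numb (414), neur (320), fng (298), mam (257), N (222), Dl (173), kuz (128) and Ser (116). The median over these 8 genes was 240, and the median strongest signal over all 3753 protein-coding genes with a summit was 151. Over those in the members' length range it was 152. These medians are not matched for the number of summits, and a gene with more summits has more values to take its strongest from. The summit of numb ranked 88 among the 3380 nuclear IDR peaks, that of neur 198 and that of fng 234, while that of Ser ranked 1812 and had 53.6% of nuclear peaks above it. Neighbours in this order could be told apart by their replicate signals at only some steps. Both replicate values of numb (231 and 186) lay above both of neur (170 and 162), and those of neur above those of fng (142 and 154). The replicate ranges of fng and mam overlapped, as did those of N and Dl and those of kuz and Ser. The values of mam (146 and 129) lay above those of N (129 and 95.4) by less than 1 unit of signal at their nearest, and those of Dl (98.2 and 96.5) lay above those of kuz (66.8 and 61.4). Most summits at these genes were weaker than these: the median over the 28 was 111, against 119 over all nuclear IDR peaks, and 11 of the 28 were above the latter.

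**Figure D2:**
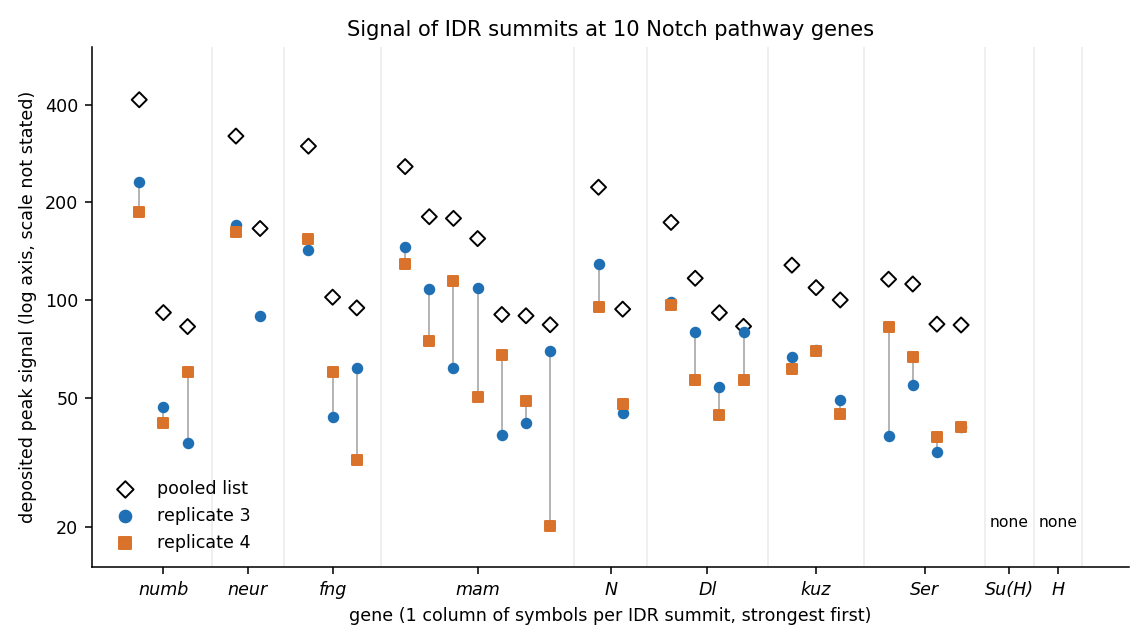
Deposited signal (y axis, log scale) of the 28 IDR summits, grouped by gene from the strongest on the left; each column is 1 summit. Open diamonds are the pooled list, blue circles replicate 3 and orange squares replicate 4, joined by a grey line; the second summit of neur has no replicate 4 symbol, and Su(H) and H have no summit.

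The summits lay mostly in introns. Of the 28, 19 were in an intron of the gene they were counted for, 6 lay upstream, 3 lay downstream and 0 lay in an exon. No intron share over all nuclear IDR peaks is set beside this. Some intron calls at mam hold for only 1 of its 4 annotated transcripts. Within 500 bp of a start site of their own gene there were 5 summits (17.9%), 1 each at Dl, kuz, neur, numb and mam. Those at neur, numb and mam lay upstream of an inner start and are also counted as intron summits. No other of the 28 lay within 500 bp of a start site of any gene, whereas 1505 of the 3380 nuclear IDR peaks (44.5%) did. For 16 of the 28 the nearest start site of any gene was their own, and 9 were also within reach of another protein-coding gene by the same 5 kb rule.

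**Figure D3:**
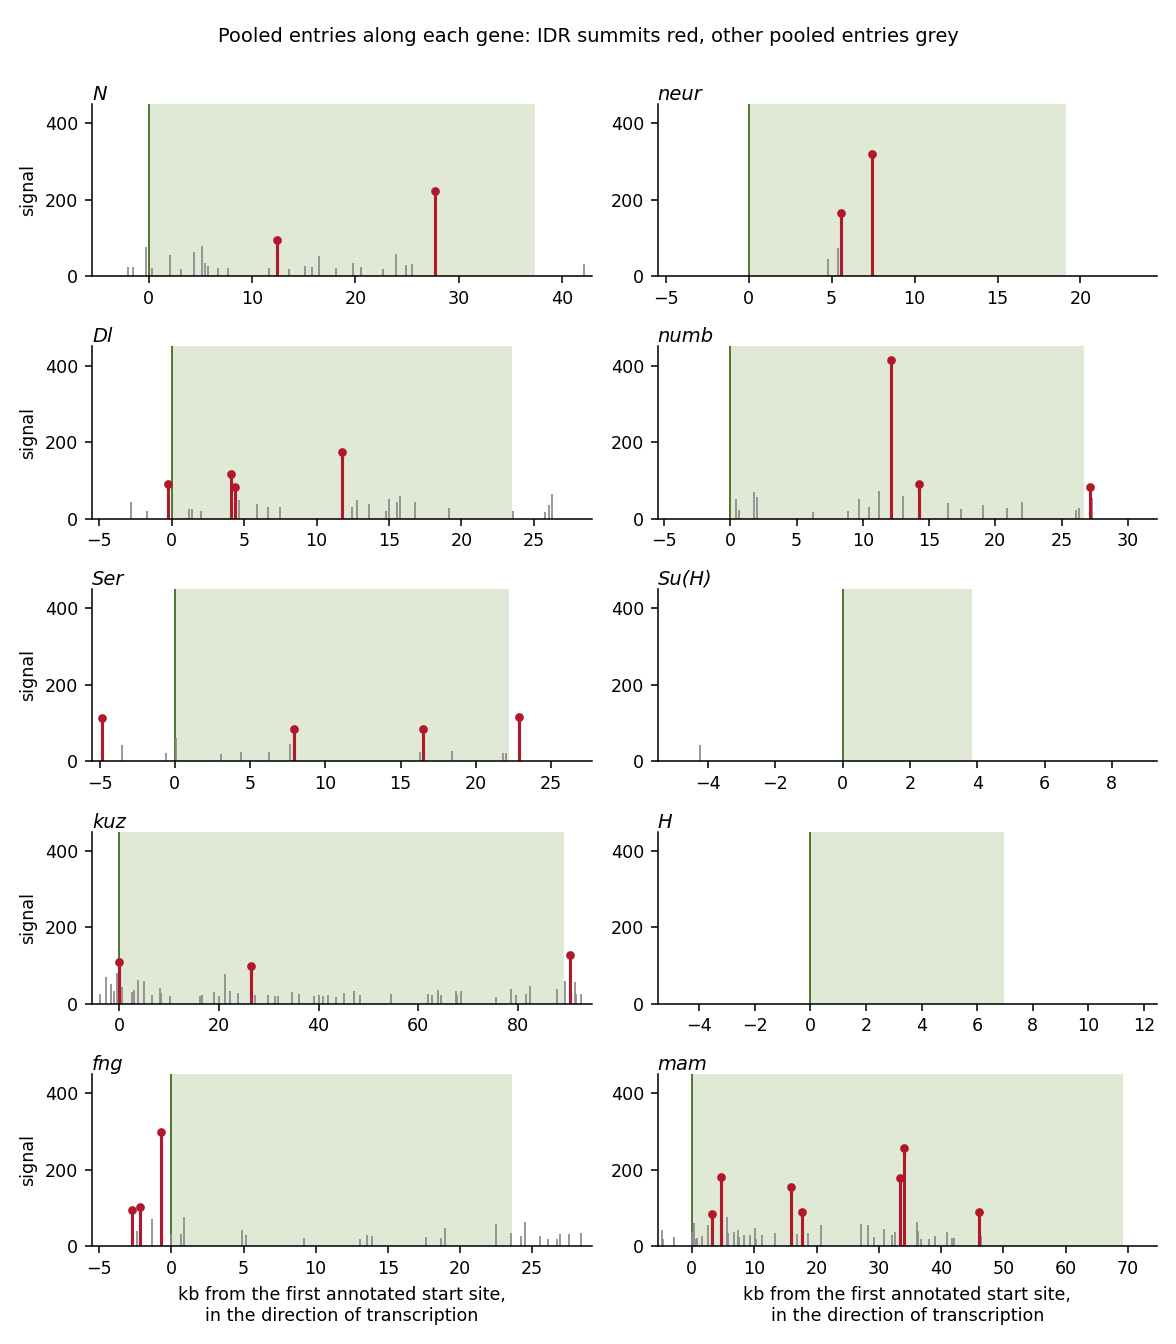
Pooled signal (y axis) of every pooled entry in the 10 genes and 5 kb on each side, against distance from the first annotated start site in kb, in the direction of transcription (x axis, drawn to the length of each gene). Red lines with a dot are IDR summits, grey lines are other pooled entries, green shading is the annotated gene and the green line its first start site; fng has its 3 summits upstream, and H has no entry.

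The receptor gene N (FBgn0004647, chrX:3134870-3172221, plus strand) had 2 summits, both in introns and both far from its start site. The stronger, at chrX:3162327-3162742, had a signal of 222, with 129 in replicate 3 and 95.4 in replicate 4, and lay in intron 5, a 4245 bp intron, 27665 bp from the start. The weaker (93.6, with 44.8 and 47.7 in the replicates) lay in the first intron, 12401 bp from the start. Replicate 3 was the higher at the stronger summit. At the weaker, the replicate 4 entry of 47.7 had its summit more than 100 bp away, and within 100 bp replicate 4 had 13.7 against 44.8 in replicate 3, a log2 ratio of 1.70. The start site nearest to the stronger summit was that of CG18508, 10605 bp away. No IDR summit lay at the N promoter. A pooled entry 274 bp upstream of the start had a signal of 75.6 (44.9 and 22.1 in replicates 3 and 4) and fell below the lowest nuclear IDR signal, 82.6. The sequence around the stronger summit, the strongest pooled entry at the receptor gene, is shown. It has no match to the motifs marked in capitals in the windows that follow, which are the Brinker, Su(H) and GAGA letters. It is chrX:3162435-3162635, and all windows are given on the plus strand of dm6 from the RefSeq Release 6 sequence, 201 bp centred on the summit.
N, intron 5: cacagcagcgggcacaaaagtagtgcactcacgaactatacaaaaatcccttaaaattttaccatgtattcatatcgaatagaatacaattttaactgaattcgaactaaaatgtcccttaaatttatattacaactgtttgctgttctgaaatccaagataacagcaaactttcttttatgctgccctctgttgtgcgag

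Both ligand genes carried 4 summits each, with the stronger signals at Dl. Dl (annotated as Delta, FBgn0000463, chr3R:19302731-19326217, minus strand) had its strongest summit in intron 3, 11730 bp from the start, with a signal of 173, and the replicates lay close together at 98.2 and 96.5. A promoter summit 291 bp upstream of the start had 91.3 (54.1 and 44.2, or 42.3 and 44.2 with a replicate summit required within 100 bp, which turns the order of the replicates). A pair of overlapping entries in the first intron, with summits 278 bp apart at 4120 and 4398 bp from the start, had 117 and 82.9. Both overlap the same strongest replicate entries, 79.5 in replicate 3 and 56.9 in replicate 4, so they are not separate replicate measurements. With a replicate summit required within 100 bp, the stronger had 79.5 and 44.2, and the weaker had no entry in replicate 3 and 56.9 in replicate 4. The weaker of the pair is the only one of the 28 summits with the letters of both the Brinker site and the Su(H) site in its 201 bp window, and both windows are shown for that reason. They are chr3R:19321719-19321919 and chr3R:19321997-19322197, with Brinker, Su(H) and GAGA letters in capitals. The Brinker letters GACGCC stand 40 bp before the summit of the first window and the Su(H) letters TTCCCACG stand 27 bp after it. The second window holds 10 overlapping matches of GAGAG in 2 runs.
Dl, intron 1, signal 82.9: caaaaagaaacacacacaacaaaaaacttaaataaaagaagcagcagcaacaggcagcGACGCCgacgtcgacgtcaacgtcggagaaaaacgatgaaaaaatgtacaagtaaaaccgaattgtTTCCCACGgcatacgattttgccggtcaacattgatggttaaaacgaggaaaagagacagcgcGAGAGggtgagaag
Dl, intron 1, signal 117: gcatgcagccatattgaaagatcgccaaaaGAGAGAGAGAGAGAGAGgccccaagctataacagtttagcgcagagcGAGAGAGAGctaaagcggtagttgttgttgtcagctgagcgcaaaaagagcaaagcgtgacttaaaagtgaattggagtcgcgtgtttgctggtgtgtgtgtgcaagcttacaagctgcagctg

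Ser (FBgn0004197, chr3R:27172090-27194267, minus strand) had summits that were weak and spread over the gene and its flanks. They lay 4845 bp upstream of the nearest start (112), in intron 4 (84.2), in intron 9 (83.7) and past the 3′ end of the gene (116). The last is also within reach of spn-D, whose start site, 5663 bp away, is the nearest to it. The start of spn-D is also the nearest to the summit in intron 9, 12048 bp away. The replicates differed most at the summit past the 3′ end, with 38.2 in replicate 3 and 82.7 in replicate 4. The upstream summit had 54.6 and 66.8. The intron summits had 34.0 and 37.8, and 40.6 and 40.7. Replicate 4 was therefore the higher at every Ser summit, with log2 ratios of replicate 3 to replicate 4 from -1.11 to -0.0053. With a replicate summit required within 100 bp, replicate 3 had 18.3 at the summit in intron 4, and its log2 ratio became -1.05.

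kuz and fng encode enzymes that act on the receptor, Kuz by cutting it after ligand binding and Fng by adding sugars that favour its response to Dl over Ser. kuz (FBgn0259984, chr2L:13550139-13639411, plus strand), the longest of the 10 genes, had 3 summits, or 0.302 per 10 kb. One lay 124 bp upstream of its start (109, with 70.3 and 69.8 in the replicates), within 5 kb of B4 as well. A second lay in the 50958 bp intron 3 (99.95, with 49.2 and 44.6), nearest to the start of lncRNA:CR44973, 6076 bp away. The strongest (128, with 66.8 and 61.4) lay past the 3′ end, 616 bp from the start of ics, which is much nearer to it than the kuz start, 90517 bp away. The replicates differed by 0.14 and 0.12 on the log2 scale at the latter 2. At the promoter summit the replicate 3 entry of 70.3 had its summit more than 100 bp away, and within 100 bp the values were 48.3 and 69.8, a log2 ratio of -0.53. The window at the strongest kuz summit, chr2L:13640556-13640756, is shown because it holds the Brinker letters GACGCC, in capitals, 15 bp before the summit.
kuz, 3′ flank: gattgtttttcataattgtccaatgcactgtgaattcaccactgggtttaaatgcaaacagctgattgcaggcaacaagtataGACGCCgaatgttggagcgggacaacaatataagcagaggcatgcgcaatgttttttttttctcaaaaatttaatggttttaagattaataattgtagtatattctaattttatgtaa

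fng (FBgn0011591, chr3L:20925891-20949512, minus strand) had all 3 of its summits upstream of the gene, within 2764 bp of its start. The nearest, 746 bp upstream, was the narrowest of the 28 (195 bp) and had a signal of 298, with 142 and 154 in the replicates. The others, 2184 and 2764 bp upstream, had 102 (43.7 and 60.03) and 94.5 (61.7 and 32.2). Their replicate values crossed, with replicate 4 higher at the first and replicate 3 at the second. The start site nearest to all 3 was that of a noncoding RNA gene, lncRNA:CR45243, 525 bp from the strongest. None lay in the fng gene body. The summits 2184 and 2764 bp upstream are also within reach of Sems, and the latter of CG10588 as well.

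neur encodes a ubiquitin ligase that drives endocytosis of Dl in the signalling cell. The gene (FBgn0002932, chr3R:9020348-9039471, minus strand) had 2 summits, both around its inner start site. The stronger, 1696 bp past that start in an intron, had 320, with 170 and 162 in the replicates, and a width of 219 bp. The other, 177 bp upstream of that start, had 166 in the pooled list and 89.3 in replicate 3, and no overlapping entry in replicate 4. The replicate 3 entry had its summit 130 bp away and also overlaps a weaker pooled entry of 73.4. With a replicate summit required within 100 bp, neither replicate had an entry at this summit. The summit is also within reach of hyx. Of all nuclear IDR peaks, 134 had no entry in replicate 4. The pooled signal was 1.86 times that of the overlapping replicate 3 entry. The median of this ratio was 1.94 over nuclear IDR peaks with entries in both replicates. As that entry has its summit elsewhere, the ratio does not tell what replicate 4 held here. Whether replicate 4 carried signal at this summit was not tested. The lists were sparse over neur as a whole, with 4 pooled entries and 2 in replicate 4, but 11 in replicate 3. Replicate 3 listed 86.7 at 710 bp past the outer start and 62.9 at 104 bp upstream of it, where the pooled list and replicate 4 hold no entry. Such cases occur elsewhere: of the 1231 nuclear entries of replicate 3 with a signal of at least 80, 144 (11.7%) overlapped no pooled entry, and of the 1009 of replicate 4, 22 (2.18%). The window at the stronger neur summit, chr3R:9031935-9032135, holds none of the 3 marked motifs and is shown because it is the strongest intron site outside numb.
neur, intron: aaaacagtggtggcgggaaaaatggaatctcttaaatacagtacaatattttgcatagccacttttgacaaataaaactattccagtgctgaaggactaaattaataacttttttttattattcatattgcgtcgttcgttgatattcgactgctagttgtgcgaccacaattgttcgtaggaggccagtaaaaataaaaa

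numb encodes an inhibitor of Notch that one daughter inherits at asymmetric divisions. It (FBgn0002973, chr2L:9437469-9464184, plus strand) had the strongest summit of the 10 genes, at chr2L:9449421-9449704. The pooled signal was 414, with 231 in replicate 3 and 186 in replicate 4, and only 2.57% of nuclear IDR peaks were stronger. This summit lay 273 bp upstream of the inner of the gene's 2 start sites, inside an intron of 1 of its 3 annotated transcripts. The outer start, 12088 bp away, had no IDR summit and a pooled entry of 50.4 at 425 bp past it (33.1 and 24.1). The other summits were weak: 91.4 (46.8 and 41.7) lay 1851 bp past the inner start, and 82.8 (36.2 and 59.98) past the 3′ end, nearest to the start of lncRNA:CR43769, 5726 bp away. The last was the weakest of the 28, just above the lowest nuclear IDR signal, 82.6. With a replicate summit required within 100 bp, the summit of 91.4 had no entry in replicate 4. The summit of 82.8 then had none in replicate 3. The window at the strongest summit, chr2L:9449457-9449657, is shown as the strongest site of the set and holds no Brinker, Su(H) or GAGA letters.
numb, inner promoter: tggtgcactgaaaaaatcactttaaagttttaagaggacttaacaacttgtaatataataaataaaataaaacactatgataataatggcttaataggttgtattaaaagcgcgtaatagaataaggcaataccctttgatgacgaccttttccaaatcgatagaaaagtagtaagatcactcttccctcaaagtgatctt

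Both genes without an IDR summit encode nuclear proteins of the pathway. Su(H), which encodes the DNA-binding protein that turns targets on or off (FBgn0004837, chr2L:15039488-15043334, plus strand), had 1 pooled entry, of 43.0, 4241 bp upstream. Replicate 4 listed 4 entries in the gene and its flanks, the strongest 43.7 at 19 bp upstream of the start, and replicate 3 listed 0. H, whose protein recruits the corepressors Gro and CtBP to Su(H) (FBgn0001169, chr3R:20621938-20628915, plus strand), had 0 entries in the pooled list and in either replicate. Its start site lay in a stretch of 56.6 kb without a pooled entry, 93.5 kb in replicate 3 and 57.0 kb in replicate 4. Stretches at least that long between neighbouring entries number 234 in the pooled list, 72 in replicate 3 and 196 in replicate 4. A gene without any pooled entry is common: 42.7% of protein-coding genes have 0, and 46.3% of those between 13 and 18 kb with flanks. The nearest IDR summit was 13.5 kb from Su(H), with its nearest start at ck, and 27.2 kb from H, nearest to bon.

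mam, the coactivator gene (FBgn0002643, chr2R:13991203-14060356, plus strand), had the most summits of the 10 genes, all 7 in introns, and 0.308% of protein-coding genes of any length had more than 7. The strongest, at chr2R:14024957-14025372, had a signal of 257, with 146 and 129 in the replicates. Another of 178 (61.6 and 114.6) lay 635 bp from it, in the same 27528 bp intron, and both were nearest to the start of the nested gene CG18371. Near the outer start, summits at 3269 and 4675 bp had 83.8 (69.7 and 20.1) and 180 (108 and 74.6). The former is also within reach of RN-tre. Ahead of the second start, summits 2114 and 296 bp upstream had 155 (109 and 50.1) and 90.2 (38.3 and 67.4), the former nearest to the start of mir-4978, 1079 bp away. The last, of 89.4 (41.8 and 48.7), lay 5687 bp past the third start. The log2 ratio of the replicates spread in both directions over these sites, from 1.80 (higher in replicate 3) to -0.89 (higher in replicate 4). The protein-coding genes with the same number of summits and the nearest length were jvl, nkd and cnc, which measured 64.3, 51.7 and 51.1 kb with flanks against 79.2 kb for mam.

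How far replicates 3 and 4 differed over the set depended on how their entries were matched to the summits. The values above are the strongest entries that overlap the peak. Of the 27 summits with an entry in both, 16 were higher in replicate 3 and 11 in replicate 4. The 16 include both summits of the overlapping Dl pair, which take the same replicate entries and so enter 2 times. On the log2 scale, replicate 3 over replicate 4 had a median of 0.07 and an SD of 0.62 at these summits, against 0.03 and 0.55 over the 3244 nuclear IDR peaks with both. More than that SD of 0.55 from the general median lay 7 of the 27, and 26.6% of nuclear IDR peaks. The 4 strongest summits of the set lay between -0.11 and 0.31. The widest ratios were 1.80 and 1.12 at mam and -1.11 at Ser. With a replicate summit required within 100 bp, 24 summits had both entries, with a median of 0.05 and an SD of 0.77, against 0.03 and 0.62 over 2948 nuclear IDR peaks.

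**Figure D4:**
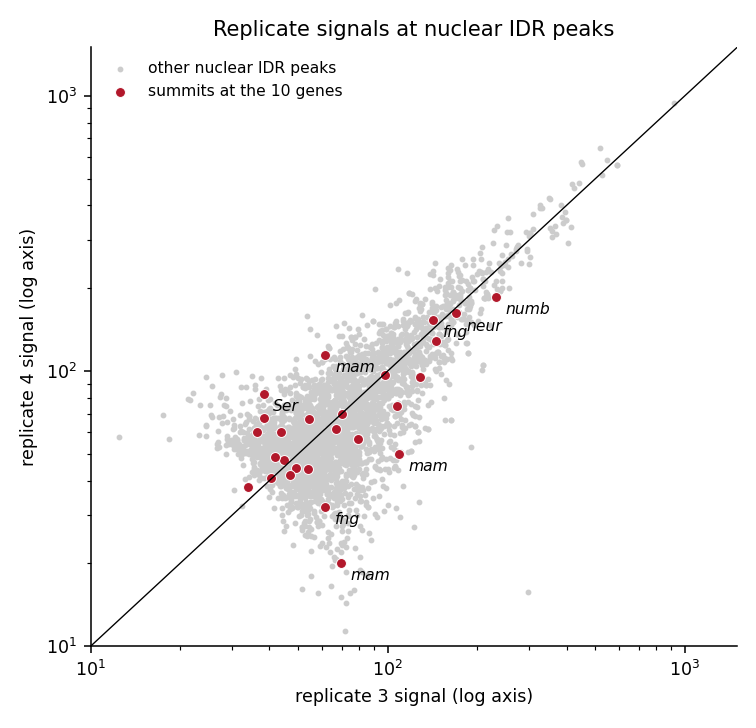
Signal in replicate 3 (x axis) against replicate 4 (y axis), both on log scales, at nuclear IDR peaks with an entry in both. Red points are the 27 such summits at the Notch pathway genes and grey points the other peaks; the line marks equal signal, the strongest summits lie near it, and among the red points a mam summit with 69.7 and 20.1 lies farthest from it.

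Below the IDR list, the same genes carried further pooled entries. On the 6 arms the IDR list holds all 3380 pooled entries with a signal of at least 82.6, so weaker entries are below that value by construction. The 10 genes and their flanks held 196 such entries. Of these, 76 had an overlapping entry in both replicates and a signal of at least the pooled median, 31.3, and 69 of the 76 did not overlap an IDR peak. Of the 76, mam had 21, kuz 16, Dl 11, fng 10, numb 8, N 7 and Ser 3, while neur, Su(H) and H had 0. Some of them overlap one another and share replicate entries. Merged where they overlap, those of mam form 18 intervals, Dl 9, fng 9, numb 7 and N 6. Those of kuz and Ser stay at 16 and 3. No share over all pooled entries is set beside these counts. The strongest apart from IDR peaks were 78.2 in an intron of kuz (35.7 and 44.4 in the replicates), 77.4 in the first intron of N (38.9 and 40.4) and 76.5 in fng, 868 bp past its start (44.3 and 25.6). Ser had 61.0 at 45 bp past a start site (26.9 and 34.4), the nearest entry to its promoter. Per kb of gene and flank the members held a median of 0.567 pooled entries of any strength, against 0.0887 over all protein-coding genes. The latter is not matched to the members' lengths, and 42.7% of all protein-coding genes held 0 pooled entries. fng (0.803) and Dl (0.776) were the densest of the set, and neur (0.137), Su(H) (0.0722) and H (0) the sparsest.

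Known binding letters were searched on both strands of the 201 bp windows. The Brinker letters were GGCG followed by CC, CT, TC or TT. They stood in 5 of 28 windows (17.9%), in 14.3% of the 3380 nuclear IDR windows and in 21.6% of 19253 windows centred on start sites of protein-coding genes. The 5 were 1 at Dl, 1 at kuz and 3 at mam, with signals from 82.9 to 180. The window at the strongest summit of kuz held these letters, and those at the strongest summits of numb, neur, mam, N, Dl and Ser did not. In 101 bp windows they stood in 4 of 28 (14.3%), against 6.51% of nuclear IDR windows. The Su(H) letters CGTGAGAA, CGTGGGAA, TGTGAGAA and TGTGGGAA stood in 1 window (3.57%), at Dl, against 1.75% of nuclear IDR windows and 2.06% at start sites. GAGAG stood in 8 (28.6%), against 28.3% and 24.99%, and the E-box letters CANNTG in 16 (57.1%), against 57.9% and 64.0%. In 101 bp windows GAGAG stood in 7 of 28, against 13.9% of nuclear IDR windows, and CANNTG in 5 (17.9%), against 33.3%, so the shares lay farther apart there. In 301 bp windows GAGAG stood in 10 (35.7%), against 41.4%, and CANNTG in 20 (71.4%), against 74.3%. The direction for GAGAG thus turned with the window. Neither TATCGATA, the DRE, nor the silencer element bound by Mad and Medea stood in any of the 28 windows, against 3.08% and 0.0592% of nuclear IDR windows. GAGAG and the other motifs can overlap one another, and each was counted by itself. Mean GC content was 34.9% (SD 8.66 over 28 windows), and 35.6% (SD 7.12) over all nuclear IDR windows.

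Other genes of the pathway were counted by the same rule, in 8 lists holding 78 matched genes, of which 45 (57.7%) had an IDR summit, against 26.9% of all protein-coding genes; their median length with flanks was 13.8 kb, and with the gene body alone 18 of the 78 had one. BobB was not matched. The gamma-secretase genes, whose products make the second cut in the receptor, had 0 of 4 (Psn, Nct, aph-1 and pen-2). Receptor glycosylation and maturation genes had 3 of 7, namely the furin gene Fur1 (273), the neurogenic gene bib (219) and the xylosyltransferase gene shams (168), and none at O-fut1, rumi, Fur2 or Gmer. The shams summit is nearest to the start of CG11920. Genes of receptor trafficking and ubiquitination had 6 of 14, led by the endosomal GTPase gene Rab5 (334), shrb (240) and the ubiquitin ligase gene Nedd4 (222), with the shrb summit nearest to CG44286 and no replicate 4 entry there or at shams. Corepressor and coactivator genes had 6 of 9, led by gro (252), Smr (192) and nej (174), with none at kto, Bre1 or Rtf1. The Smr summit is nearest to the start of lncRNA:CR43963, 4688 bp away, and the nej summit to that of lncRNA:CR42657, 457 bp away.

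Genes of ligand ubiquitination and the Bearded family, small proteins that inhibit Neur, had 8 of 9, led by E(spl)malpha-BFM (316), E(spl)m6-BFM (222) and E(spl)m2-BFM (190). The E(spl)m6-BFM summit is nearest to the start of E(spl)m7-HLH, 426 bp away. Brd, Tom and Ocho shared 1 summit (170), and BobA had none. The E(spl) bHLH repressor genes, the direct targets of the pathway, had 6 of 7, with none at E(spl)m5-HLH, and their leading values were shared with neighbours: the 316 of E(spl)mbeta-HLH is the E(spl)malpha-BFM summit, and the 252 of E(spl)m7-HLH and E(spl)m8-HLH is the gro summit. Partners of numb in asymmetric division had 7 of 14, led by the translational repressor gene brat (342), the polarity gene scrib (192) and the kinase gene aPKC (190). Genes that respond to Notch had 9 of 14, led by edl (356), Dll (269) and wg (149), and none at dpn, ac, sc, l(1)sc or ase. The wg summit is nearest to the start of lncRNA:CR45304, 9353 bp away. Members of the Bearded and E(spl) lists lie side by side, so their counts are not of separate sites: the 8 genes of the former held 11 distinct summits and the 6 of the latter 12.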

How the data were processed

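Chromatin immunoprecipitation sequencing of GFP-tagged Brinker in 2 replicates was represented by 4 deposited peak lists on dm6. Per the deposited sample notes, the authors called peaks and background for each replicate and for the pooled alignments against a control alignment, and derived the IDR list from those 3. Aligner, caller, versions and IDR cut-off: not given in the sources used here. Signal values were used as deposited by the authors. Lists on dm3 were not used, as no dm3 annotation was at hand.

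Summits were placed, counting from 1, on the Ensembl release 115 annotation (BDGP 6.54) without transposable elements, with Python 3.11.15 and pandas 2.3.3. All 10 members matched a gene, Dl under the symbol Delta. Replicate entries overlapped an IDR peak by at least 1 bp, and the strongest was taken. Motifs were read within 100 bp of the summit, and motif shares at promoters used windows at Ensembl start sites. The sequence of 1 summit window is not reported here. The counting steps were checked on simulated data. Members and lists were chosen with earlier results of these data known. Named genes were all members, the gene with the start nearest to a member's summit where that was another gene, the 3 strongest of each list, genes with none where 5 or fewer, and the 3 genes most like mam; neighbours of the listed genes' summits were added after their values were seen. Alternatives varied the flank, the assignment, the list, the replicate match, the promoter distance and the motif window.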

Additional observations from a re-analysis of the deposited data

How the results depend on the processing

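The count of 8 genes with a summit stayed between 7 and 9 under every alternative run. fng was lost with the gene body alone and by nearest start site, and Ser with summits at or above the nuclear median. With the strongest entries of 1 replicate in place of the IDR list, the counts of genes were 8 (replicate 3 only) and 9 (replicate 4 only, adding Su(H)), and the counts of summits 23 and 28. The 28 summits became 11 at or above the nuclear median signal and 16 by nearest start site. The other alternatives to the flank gave 19 to 32. Within 10 kb, mam gained a summit of 449 at the start of CG8067, and its strongest value rose from 257. The median strongest signal of 240 was 222 with the gene body alone, 260 within 10 kb, 136 in replicate 3 alone and 113 in replicate 4 alone, and the pooled signal is a median of 0.992 times the sum of both replicates. Promoter summits numbered 2 within 250 bp and 6 within 1000 bp. Brinker letters stood in 9 windows (32.1%) with 150 bp on each side, against 22.5% of nuclear IDR windows. With 50 bp they stood in 4 (14.3%), against 6.51%. With a replicate summit required within 100 bp, 24 summits had both entries, the median log2 ratio was 0.05 and the SD rose from 0.62 to 0.77; single summits moved by more, as the weaker N summit, from -0.09 to 1.70. Of the 76 weaker entries, 0 reached the lowest nuclear IDR signal. Over the 8 pathway lists, the 45 genes fell to 18 with the gene body alone, an alternative chosen after seeing the data. No paired analysis was possible because there is 1 group. Depth is unknown, so a list without an entry at H or Su(H) does not show that signal was absent there.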
